A study of Mus musculus with 16 samples.

Results

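Genes of cholesterol synthesis, absorption and efflux were examined in the small intestine of mice lacking Mfge8 or Cd36. The members were the 31 genes named in a list of this pathway, taken by gene symbol from the 24420 features of each deposited table, and all 31 were present in both tables. They comprised 7 genes of the mevalonate pathway, 11 of the squalene and sterol steps, 4 of sterol sensing, 3 of uptake and esterification, 3 of efflux and 3 of intracellular transport. All animals were of the strain given as C57B6. The first experiment used enterocytes, which line the villi and absorb nutrients, isolated from WT mice (4 libraries) and mice given as Mfge8 KO (5 libraries). The second held small intestine from WT mice (4 libraries) and mice given as Cd36 KO (3 libraries). The secreted protein MFGE8 is a ligand of integrins. The receptor CD36 takes up long-chain fatty acids at the cell membrane. Age, sex, diet, gut segment, the alleles and any pooling of animals were not given in the labels.

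Cells make cholesterol from acetyl-CoA through mevalonate, isoprenoid diphosphates, squalene and lanosterol. When membranes of the endoplasmic reticulum are poor in sterol, SCAP carries SREBP2, the product of Srebf2, to the Golgi apparatus, and the released factor raises transcription of the synthesis genes. INSIG proteins hold the complex back when sterol is plentiful. The enterocyte also takes cholesterol from the gut lumen through NPC1L1, esterifies it with SOAT2 for chylomicrons, returns sterol to the lumen through the ABCG5 and ABCG8 pair, and exports it across the basolateral side through ABCA1.

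Upstream sequences are shown for Hmgcs1, as a textbook target of SREBP2, for Insig1, the member that differed in Cd36 null intestine, and for the stretch that Abcg5 and Abcg8 share. They come from RefSeq on GRCm38.p6, which is the assembly of mm10. Of the 31 members 24 matched an entry; Sqle did not, and none is shown for it. Each window of the synthesis and sensing genes is the 250 bases before the annotated start, 5′ to 3′ on the gene's strand. Hmgcs1 encodes the cytosolic enzyme that makes HMG-CoA, and its window (chr13:119690101-119690350, plus strand) held the letters TCACNCCAC of the sterol regulatory element. Insig1 encodes a sterol-dependent anchor of SCAP, and its window (chr5:28071162-28071411, plus strand) held no such letters. Capitals mark the sterol regulatory element letters and the CCAAT box, searched on both strands.
Hmgcs1: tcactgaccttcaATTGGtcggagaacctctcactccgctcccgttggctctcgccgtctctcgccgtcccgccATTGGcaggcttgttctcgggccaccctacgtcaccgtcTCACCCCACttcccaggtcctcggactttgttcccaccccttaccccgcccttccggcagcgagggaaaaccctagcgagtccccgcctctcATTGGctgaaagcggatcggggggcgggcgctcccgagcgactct
Insig1: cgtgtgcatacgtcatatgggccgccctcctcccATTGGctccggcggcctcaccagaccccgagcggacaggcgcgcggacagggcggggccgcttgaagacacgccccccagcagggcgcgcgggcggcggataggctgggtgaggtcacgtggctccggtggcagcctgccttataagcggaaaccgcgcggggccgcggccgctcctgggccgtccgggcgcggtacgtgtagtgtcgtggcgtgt

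The sterol regulatory element letters were found before 1 of the 24 members (Hmgcs1) and before 1.23% of 27025 genes in windows of the same length. CCAAT was found before 20 of the 24 members and before 37.5% of all genes, and the GC box GGGCGG before 20 of the 24 and 35.4% of all genes. Each motif was counted on its own, and a gene with several starts was counted as holding a motif if any of its windows did. These matches describe letters and not bound factors. Abcg5 and Abcg8, the transporters that act as 1 pair, start back to back on chromosome 17 when the Abcg8 start at 84683121 is taken. Another annotated Abcg8 start, at 84676302, lies inside Abcg5 and was not used for the stretch below. The 109 bases between their starts (chr17:84683012-84683120, plus strand, with Abcg5 read to the left and Abcg8 to the right) are shown because the values of both genes are described together. Capitals mark GATAA on either strand, which occurred at 2 places here and in 9.36% of windows of this length taken just before the starts of all genes.
Abcg5 to Abcg8: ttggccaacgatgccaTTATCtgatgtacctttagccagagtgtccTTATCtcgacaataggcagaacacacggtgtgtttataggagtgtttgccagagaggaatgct

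Enterocyte libraries held 1618369 to 2459812 reads and intestine libraries 850297 to 1000694. Levels are normalised read counts: the reads of a gene over the size factor of the library. Each table was normalised on its own, so genotypes were compared within a table only. Mfge8 was 14.8 ± 6.70 (SD, n = 4) in WT and 3.45 ± 2.43 (n = 5) in null enterocytes, without overlap of the libraries (2-sided exact permutation p = 0.0159, the smallest that this test can give). Cd36 was 111 to 116 in WT and 6.48 to 16.0 in null intestine. A 3′ tag counts the end of a transcript and does not show whether the deleted part is missing. Enterocyte libraries of the same genotype were far more spread than counting allows (chi-square over its degrees of freedom 6.26 to 20.2). For intestine libraries of the same genotype the figure was 0.987 to 1.12, close to sampling noise alone. Each intestine genotype was therefore taken as 1 sample. Cd36 results are thus treated as differences between 2 preparations, which the labels do not name, with no replicate check. The labels do not name separate animals, so enterocyte p-values measure the spread between libraries, which may be technical. All 7 enterocyte markers passed the filter in both tables. The intestine libraries held at most 2.78 summed normalised reads of 4 smooth muscle markers, so muscle markers of the labelled tissue were nearly absent.

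In Mfge8 null enterocytes 1 of the 30 members measured changed. Sqle, which encodes squalene epoxidase, a rate-limiting oxygen-dependent step of sterol synthesis, rose 2.21-fold, and 29 members did not pass. A gene was tested when its value was at least 5 in at least 4 libraries, and it passed at an adjusted p under 0.05 by limma on log2(value + 1). Over all genes 3.21% of 9432 passed, 1.58% higher and 1.63% lower in null, so 1 of 30 members is near that background. The members had a median log2 change of 0.20, against 0.001 over all genes tested. Of the 30 members 19 had a log2 change above 0, as did 50.1% of all genes. Unadjusted p-values under 0.05 were found for 4 members (Sqle, Insig2, Npc1 and Fdps) and for 15.9% of all genes. Scarb1, a receptor for high-density lipoprotein, was at 0 to 3.92 in WT and 0.820 to 6.58 in null libraries and was not tested. In such bulk samples fewer cells of a type and less RNA per cell cannot be told apart.

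**Figure D1:**
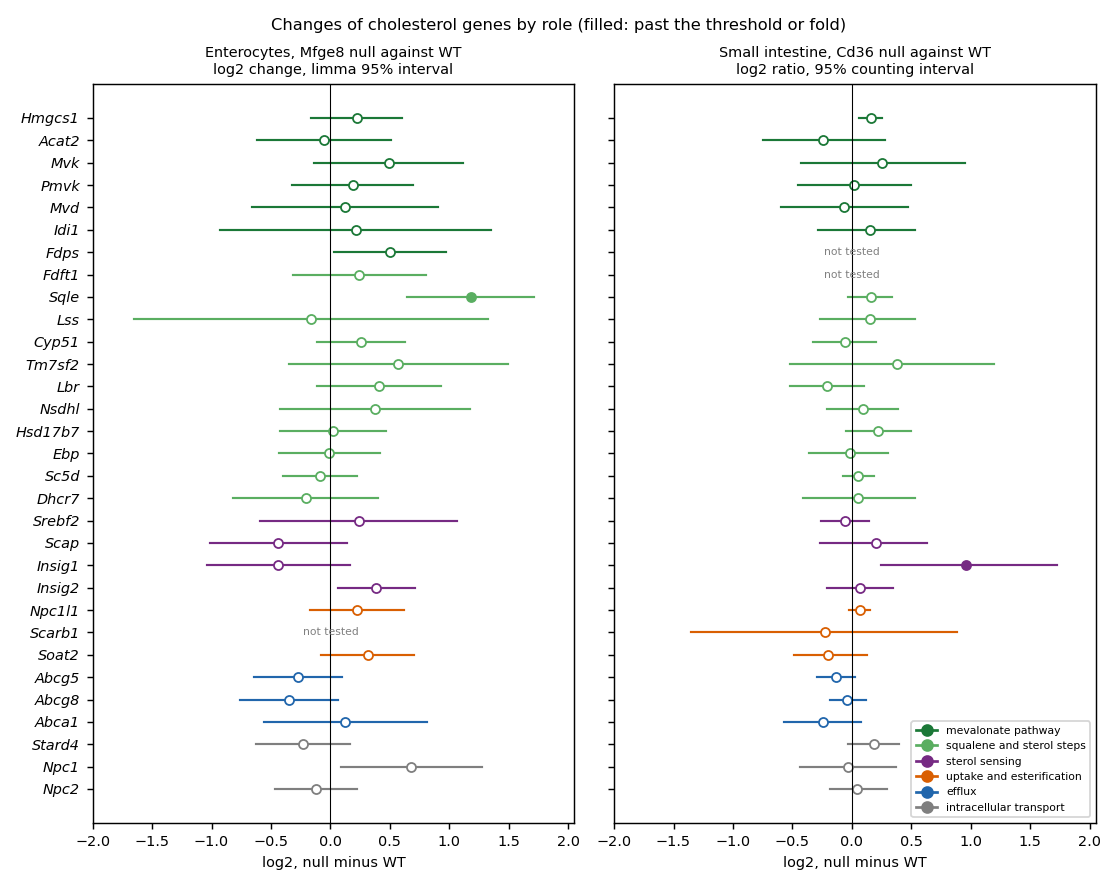
Log2 difference (null minus WT) for each cholesterol gene, ordered and coloured by role, in enterocytes of the Mfge8 experiment (left, limma estimate with 95% interval, 4 WT and 5 null libraries) and in small intestine of the Cd36 experiment (right, ratio of means with 95% counting interval). Filled points passed; they are Sqle on the left at 1.18 and Insig1 on the right at 0.96, and most other intervals cross 0.

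None of the 7 mevalonate genes passed by limma, 1 had an unadjusted p under 0.05 (against 15.9% of all genes), and their median log2 change was 0.21. Hmgcs1 was at 518, 515, 458 and 743 in WT 1 to 4 and at 567, 597, 682, 518 and 888 in null 1 to 5. The highest WT library lay above 4 of the 5 null libraries, and the log2 change of 0.22 had a 95% interval of -0.16 to 0.60. Fdps, which makes farnesyl diphosphate, had the smallest unadjusted p of the 7, at 33.5 ± 9.48 in WT (SD, n = 4) and 46.9 ± 7.71 in null libraries (n = 5). Its log2 change was 0.50 (SE 0.22, limma adjusted p = 0.274). Reads of Fdps are uncertain, since stretches of the last 400 bases of its transcript match transcripts of 7 other annotated genes or pseudogenes at 90% identity or more. Mvk, mevalonate kinase, had a log2 change of 0.49 (interval -0.14 to 1.12). Pmvk, the next kinase, had 0.19, Idi1, the isopentenyl diphosphate isomerase, 0.21, Mvd, the decarboxylase, 0.13, and Acat2, the cytosolic thiolase that starts the pathway, -0.06. Idi1 spread most among these genes, with WT libraries at 3.92 to 39.7 and null libraries at 6.99 to 38.2.

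Of the 11 genes of the squalene and sterol steps 1 rose and 10 did not pass, with a median log2 change of 0.24. Sqle (chromosome 15, 59315092 to 59331193, mm10) was at 36.2, 49.9, 23.5 and 59.6 in WT 1 to 4. In null 1 to 5 it was at 117, 87.7, 88.9, 64.2 and 111. All 5 null libraries lay above all 4 WT libraries, and null 4 exceeded WT 4 by little. The log2 change was 1.18 (SE 0.25, 95% interval 0.64 to 1.72, limma adjusted p = 0.0165). An exact permutation of its libraries, 2-sided, gave p = 0.0159, the smallest possible. Groups without overlap fix this value, so it adds nothing to the non-overlap, and it was not adjusted for the choice of Sqle among the members. Over all genes tested 6.42% had groups without overlap, and Sqle was the 1 member of 30 that did. The call was lost without WT 1 (limma adjusted p = 0.0648) and without WT 3 (0.0507), and also with the regional score described below. It was lost too when same-numbered libraries were taken as blocks, which left out null 5 (limma adjusted p = 0.0592).

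The steps on either side of Sqle did not pass. Fdft1, squalene synthase, which makes the substrate of Sqle, was at 44.7 to 83.4 in WT and 49.95 to 117 in null libraries, a log2 change of 0.24 (interval -0.31 to 0.80). Lss, which closes squalene epoxide to lanosterol, was low and scattered, at 3.92 to 15.9 in WT and 0 to 15.6 in null libraries. Its reads are uncertain because a stretch of its end matches a transcript of 4930483K19Rik. Cyp51, the lanosterol demethylase, had a log2 change of 0.26 (interval -0.11 to 0.63), from 144 ± 15.6 to 175 ± 43.3 (SD, n = 4 and 5). The sterol reductases Tm7sf2 and Lbr, of which Lbr is also a lamin receptor of the nuclear envelope, had changes of 0.57 and 0.41. Nsdhl and Hsd17b7, which act in removing the methyl groups at carbon 4, had 0.38 and 0.02. Ebp, the sterol isomerase, Sc5d, the sterol desaturase, and Dhcr7, the last reductase, had -0.01, -0.09 and -0.21. Across the 18 synthesis genes 13 changes were above 0. The counting setting for strand was not given, and exons of Ctsb, Akap9 and Dnah14 lie on the other strand within the last 500 bases of Fdft1, Cyp51 and Lbr, so those reads are uncertain.

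Libraries of the same genotype differed in the level of many synthesis genes. Among WT libraries, WT 4 had the highest value for 12 of the 18 genes and the lowest for 3 (Tm7sf2, Ebp and Sc5d), and WT 3 had the lowest for 11. WT 1 was highest for 5. Among null libraries, null 5 had the highest value for 12 and null 4 the lowest for 7. The median deviation of the 18 genes from their WT means, on the log2 scale, was 0.35 in WT 4 and -0.26 in WT 3. It was 0.78 in null 5, 0.28 in null 1, 0.12 in both null 2 and null 3, and -0.09 in null 4. Null 5 thus stood above the rest, and the medians of null 1 to 4 lay within the WT range. Across the other 12 members the median deviation in null 5 was 0.05, and in WT 4 it was -0.25.

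**Figure D2:**
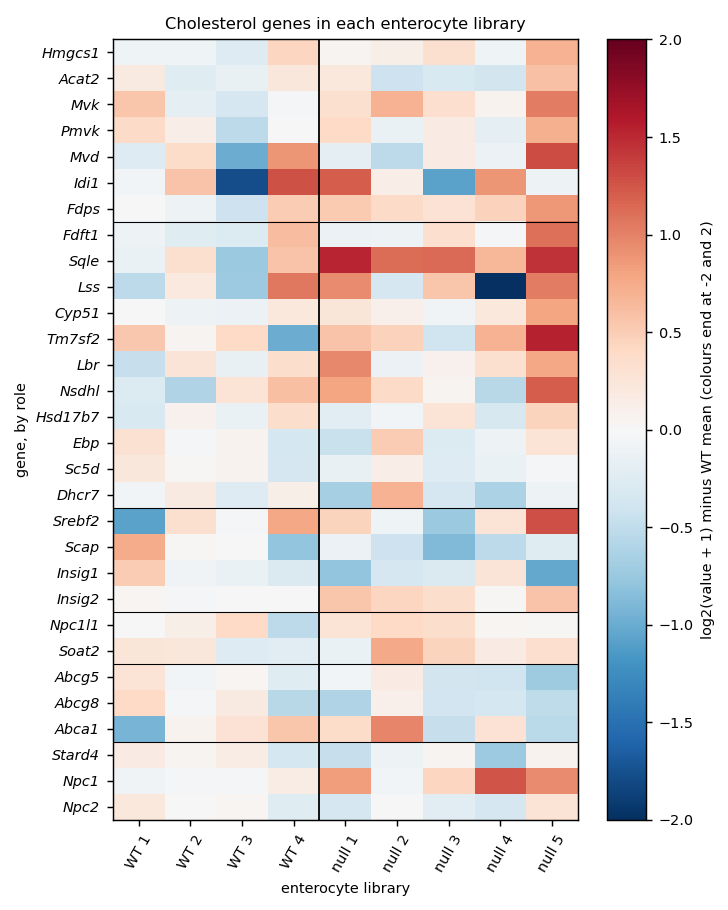
Each cell gives log2(value + 1) of 1 gene in 1 enterocyte library minus the mean of the WT libraries, with genes in rows by role and libraries in columns (4 WT left of the line, 5 Mfge8 null right). Most synthesis genes in the upper rows are highest within their genotype in WT 4 and null 5, with median deviations of 0.35 and 0.78, and Sqle is above the WT mean in all 5 null libraries.

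Markers of gut region moved with this pattern in some libraries and not in others. A regional score, the mean log2 level of 4 ileal markers subtracted from that of 3 proximal ones, was 2.33, 0.66, 0.70 and -0.80 in WT 1 to 4. It was -0.66, 0.45, -1.69, 1.46 and -2.46 in null 1 to 5, so WT 4 was the most ileal of the WT libraries and null 5 of the null libraries. The other libraries did not keep this order. Null 3, at -1.69, had the same median deviation of the synthesis genes, 0.12, as null 2, at 0.45. WT 3 had the lowest median deviation, -0.26, at a score of 0.70, and WT 1, the most proximal, had -0.05. Fabp6, the ileal bile acid-binding protein, was at 43.3, 416, 397 and 8959 in WT 1 to 4 and at 1204, 352, 2352, 34.3 and 6807 in null 1 to 5. The 5 ileal markers summed to 940 to 9722 in WT and 988 to 8532 in null libraries. The 6 proximal markers summed to 2301 to 5819 and 1742 to 5156. With the score as a covariate the median change of the 30 members was 0.003 in place of 0.20, and that of the 18 synthesis genes 0.03 in place of 0.22. Sqle then had a log2 change of 0.94 (SE 0.26, limma adjusted p = 0.0897) and no member passed, while 16 of the 30 changes were above 0. Of the markers in the score Onecut2 fell and Slc51b rose between the genotypes, so the score is not independent of genotype.

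**Figure D3:**
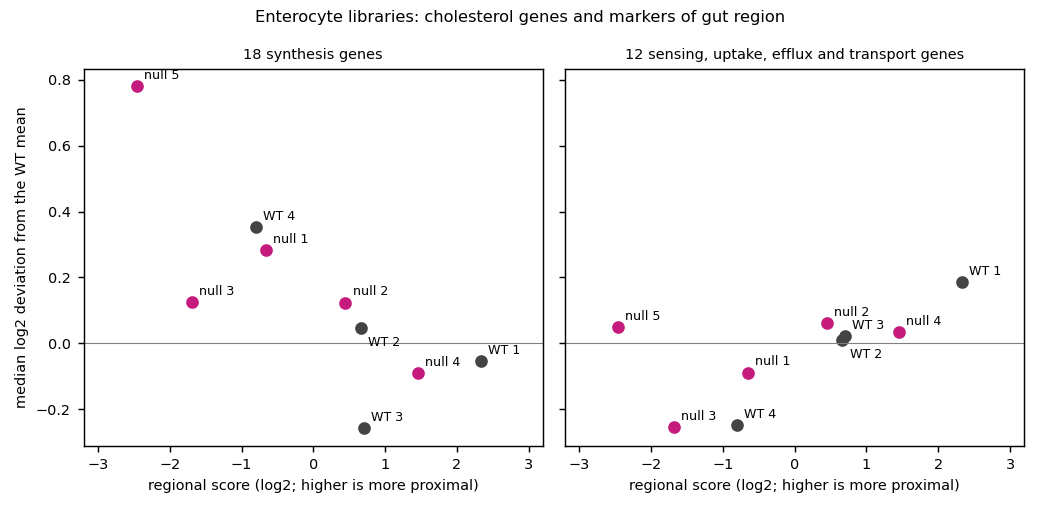
Median log2 deviation from the WT mean of the 18 synthesis genes (left) and of the 12 other cholesterol genes (right) against the regional score in each of the 9 enterocyte libraries (grey WT, pink Mfge8 null). Null 5 combines the lowest score, -2.46, with the highest synthesis value, 0.78, and null 4, at a score of 1.46, lies at -0.09. Null 3, at a score of -1.69, and null 2, at 0.45, both lie at 0.12.

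None of the 4 genes of sterol sensing passed by limma, and 1 (against 15.9% of all genes) had an unadjusted p under 0.05. That gene was Insig2, the form of INSIG whose level does not depend on SREBP2 in the way that of Insig1 does. It was at 119, 112, 117 and 115 in WT 1 to 4 and at 171, 156, 148, 118 and 173 in null 1 to 5. Null 4 lay inside the narrow WT range and the other 4 null libraries above it, with a log2 change of 0.39 (SE 0.15, limma adjusted p = 0.216). Insig1, itself a target of SREBP2, was at 42.1, 28.1, 26.7 and 23.8 in WT and at 16.7, 23.0, 24.0, 35.3 and 13.9 in null libraries. Its lowest value was in null 5, where the synthesis genes were highest, and its log2 change was -0.44 (interval -1.04 to 0.16). Srebf2 was at 11.7, 32.2, 25.1 and 44.7 in WT and at 35.3, 24.1, 15.0, 31.1 and 64.0 in null libraries, with overlap and a change of 0.24 (interval -0.59 to 1.06). Its highest values were in WT 4 and null 5, as for the synthesis genes. Scap, the escort of SREBP2, had a change of -0.44 (interval -1.01 to 0.14).

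Genes of absorption and esterification were not shown to differ. Npc1l1 (chromosome 11, 6211011 to 6230245), the intestinal cholesterol importer, was at 2702, 2947, 3578 and 1885 in WT and at 3283, 3570.2, 3445, 2796 and 2766 in null libraries. The null values lay within the WT range, and the log2 change was 0.22 (interval -0.17 to 0.62). WT 4, with the strongest ileal markers among WT libraries, had the lowest Npc1l1 level. Other libraries did not keep this order. WT 1, the most proximal at a regional score of 2.33, was the next lowest of the WT libraries. Null 4, at a score of 1.46, and null 5, at -2.46, had close levels of 2796 and 2766. Soat2, which esterifies cholesterol and shares the protein name ACAT2 with the thiolase gene, was at 181, 179.9, 129 and 131 in WT and at 140.1, 259, 208, 172 and 193 in null libraries. The change was 0.31 (interval -0.08 to 0.71), with overlap. The end of its transcript matches stretches of many other annotated transcripts at 90% identity or more, so its reads are uncertain.

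None of the 3 efflux genes passed by limma, and none had an unadjusted p under 0.05. Abcg5 was at 650.0, 518, 550.3 and 453 in WT and at 516, 603, 419, 409 and 329.7 in null libraries, a log2 change of -0.27 (interval -0.64 to 0.10). Abcg8 was at 379, 282, 327 and 195 in WT and at 188, 309, 219.7, 226 and 202 in null libraries, a change of -0.35 (interval -0.76 to 0.06). For both genes WT 1 was the highest WT library, WT 4 the lowest, and null 2 the highest null library. The intervals of this pair reach from values clearly below 0 to values just above it. Abca1 was at 31.6, 64.5, 75.3 and 90.3 in WT and at 79.3, 121, 43.9, 75.0 and 41.8 in null libraries. Its WT extremes were the reverse of those of Abcg5 and Abcg8, with WT 1 lowest and WT 4 highest. Among null libraries null 2 was the highest for Abca1, as for that pair. Abca1 had a change of 0.13 (interval -0.56 to 0.81).

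Of the 3 genes of intracellular transport none passed by limma and 1, Npc1, had an unadjusted p under 0.05, as had 15.9% of all genes. Npc1 encodes a membrane protein that releases cholesterol from late endosomes and lysosomes. It was at 15.2, 15.6, 15.7 and 17.9 in WT and at 29.4, 15.3, 22.0, 39.6 and 32.0 in null libraries. Of the null libraries 4 of 5 lay above the WT range and null 2 within it, with a log2 change of 0.68 (SE 0.28, limma adjusted p = 0.234). Exons of Rmc1 lie on the other strand at its end, so these reads are uncertain. Npc2, its soluble partner, had a change of -0.12 (interval -0.46 to 0.22), and Stard4, a cytosolic sterol carrier, -0.23 (interval -0.62 to 0.16).

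**Figure D4:**
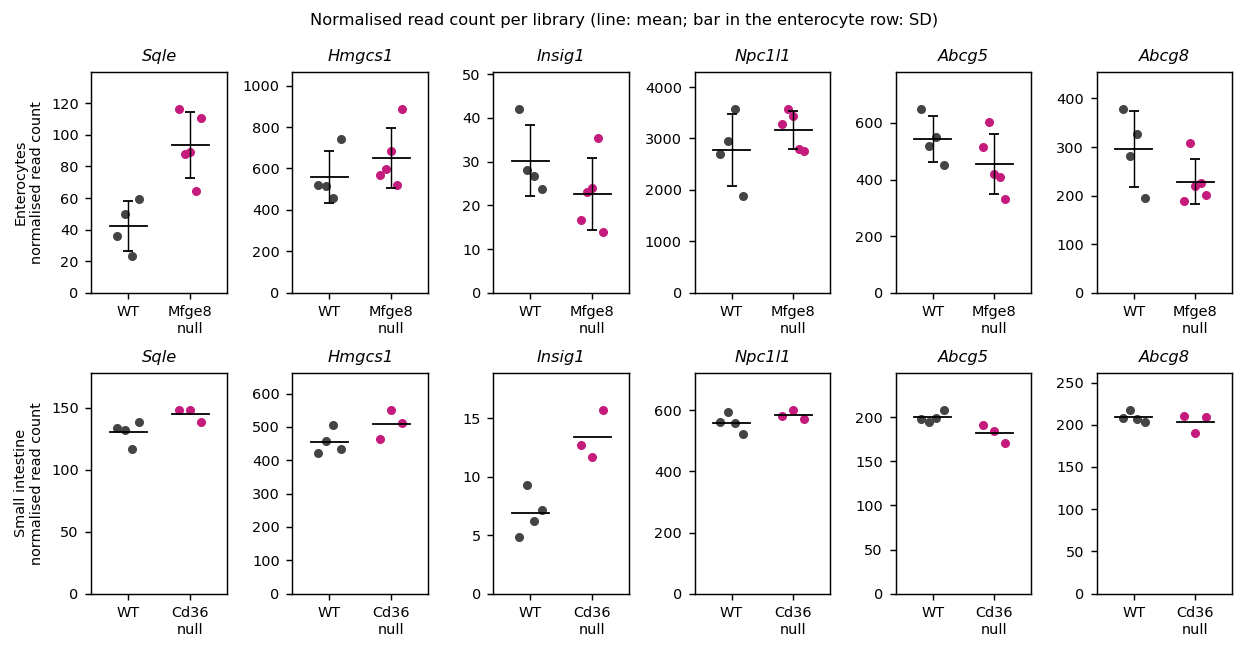
Normalised read count of 6 cholesterol genes in each library (points), with the group mean (line). The upper row is enterocytes (SD bars, 4 WT and 5 Mfge8 null). The lower row is small intestine (4 WT and 3 Cd36 null libraries, each genotype taken as 1 sample). Sqle in enterocytes, and Sqle, Insig1 and Abcg5 in intestine, are the panels whose genotypes do not overlap, with Insig1 at 4.80 to 9.29 in WT and 11.7 to 15.7 in Cd36 null intestine.

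Of 32 other genes of the pathway, which cover late synthesis, SREBP processing, liver X receptors, sterol transfer and lysosomal release, 27 were tested in enterocytes. None passed by limma and 4 of the 27 had an unadjusted p under 0.05, as had 15.9% of all genes, so this count is near background. Their median log2 change was 0.09. Markers of other cells are given beside these values. The 5 T cell markers summed to 1065 to 3004 in WT and 2918 to 6867 in null libraries, with overlap, and 0 of 5 passed. The 4 markers of B and plasma cells summed to 17.5 to 120.1 and 204 to 492, of which Jchain, the 1 of 3 tested that passed, made 14.0 to 116 and 189 to 438. Cd79b overlapped between the genotypes and Cd79a was at 0 in all libraries. The part of these cells in the results above was not tested.

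In Cd36 null intestine 1 of the 29 members measured was past the fold used. Insig1 was 1.94-fold higher in the null preparation, and the other 28 members were not past it. A gene was past the fold when the mean value was at least 25% higher or 20% lower in null and the exact 95% counting interval of the ratio left out 1. By this rule 12.1% of 9314 genes were past it (5.75% higher and 6.32% lower in null), a higher share than 1 of 29. The members had a median log2 ratio of 0.05, against -0.004 over all genes tested, and 17 of 29 were above 0, as were 49.3% of all genes. The libraries of the genotypes did not overlap for 5 of the 29 (Sqle, Lbr, Sc5d, Insig1 and Abcg5) and for 16.5% of all genes. Intervals given for this table cover counting error only.

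Insig1 (chromosome 5, 28071412 to 28078662) was at 4.80, 9.29, 6.23 and 7.18 in WT 1 to 4 and at 12.7, 11.7 and 15.7 in null 1 to 3. The ratio rested on 27 WT and 42 null reads, with a counting interval of 1.18 to 3.31. Without null 3 the ratio was 1.77 and its interval on the log2 scale, -0.01 to 1.68, took in 0. When libraries were taken as replicates, limma gave a log2 change of 0.89 with an adjusted p of 0.0912, and no member passed, against 7.5% of all genes. Insig2, with a log2 ratio of 0.07 (interval -0.21 to 0.35), did not share this difference, though the difference between the 2 genes was not tested. Srebf2 was at 127, 108, 122 and 130.3 in WT and 125, 111 and 115 in null libraries, a log2 ratio of -0.06 (interval -0.26 to 0.14). Scap had a ratio of 0.20 (interval -0.27 to 0.63).

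Of the mevalonate genes none of the 6 measured was past the fold, and Fdps was too low to test, at 0.960 to 3.62 in all libraries. Hmgcs1 was at 423, 457, 507 and 435 in WT and at 465, 552 and 512 in null libraries. Its ratio was 1.12, with a counting interval of 1.04 to 1.19 that lies below the fold used. It was the 1 member besides Insig1 whose interval left out 1, and its libraries overlapped. The other log2 ratios of this step ran from -0.24 (Acat2) to 0.26 (Mvk).

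Of the sterol steps none of the 10 measured genes was past the fold, and Fdft1 was too low to test, at 1.06 to 3.84. Sqle was at 134, 132, 116 and 139 in WT and at 148, 148 and 139 in null libraries. Null 3 exceeded WT 4 by less than 1 normalised read, and the ratio was 1.11 (interval 0.979 to 1.27). Lbr was at 50.3 to 58.2 in WT and 44.7 to 47.2 in null libraries, a ratio of 0.865 (interval 0.696 to 1.08). Sc5d was at 263 to 276 and 277 to 287, a ratio of 1.04 (interval 0.948 to 1.14). These non-overlapping ranges were thus narrow differences. The other 7 log2 ratios ran from -0.06 (Cyp51) to 0.38 (Tm7sf2), the latter resting on 25 reads in each genotype.

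None of the 6 genes of uptake, esterification and efflux was past the fold in the intestine. Npc1l1 was at 562, 594, 557 and 523 in WT and 582, 602 and 572 in null libraries, a ratio of 1.05 whose interval of 0.982 to 1.11 leaves out the fold used. Abcg5 was at 198, 194, 198 and 208 in WT and at 191, 184 and 170.2 in null libraries. All null values lay below all WT values, and the ratio was 0.9104 (interval 0.816 to 1.02). Abcg8, from the same start region, was at 208, 218, 207 and 203 in WT and 211, 191 and 209 in null libraries, with overlap and a ratio of 0.973 (interval 0.879 to 1.08). Abca1 was at 58.6, 44.4, 46.8 and 51.3 in WT and 38.0, 41.5 and 48.1 in null libraries, a ratio of 0.846 (interval 0.672 to 1.06). Soat2 was at 60.5, 52.7, 72.7 and 40.02 in WT and 58.8, 31.9 and 56.4 in null libraries, a ratio of 0.869 (interval 0.715 to 1.09). Scarb1 rested on 19 WT and 13 null reads, and its interval of 0.392 to 1.84 is too wide to describe a difference.

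Among the genes of intracellular transport Stard4 had a ratio of 1.14 (interval 0.979 to 1.32), Npc2 1.03 and Npc1 0.976. Of the 26 other pathway genes measured 1 was past the fold, a lower share than the 12.1% of all genes. This gene was Lipa, the lysosomal lipase that frees cholesterol from its esters. It was at 71.1, 59.9, 66.5 and 70.8 in WT and at 89.6, 89.5 and 89.7 in null libraries, a ratio of 1.34 (interval 1.12 to 1.58). In Mfge8 null enterocytes Lipa had a log2 change of -0.65 (SE 0.25, limma adjusted p = 0.195).

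Markers of region and of other cells also differed between the intestine preparations. Fabp6 was at 263 to 284 in WT and 62.9 to 77.7 in null libraries, and Fgf15, an ileal hormone, at 5.16 to 10.3 and 20.8 to 27.7, while the 5 ileal markers summed to 983 to 1046 and 689 to 748. None of the 4 proximal markers tested was past the fold, and all 6 summed to 769.6 to 832 in WT and 819 to 879 in null libraries. The 4 tuft cell markers summed to 58.6 to 67.7 and 137 to 156, with 3 of 3 tested past the fold. The 5 enteroendocrine markers summed to 257 to 293 and 368 to 378, with 3 of 5 past it, and the 5 proliferation markers to 269 to 289 and 195 to 218, with 2 of 4 past it. The 4 fibroblast markers summed to 19.2 to 33.3 in WT and 9.05 to 11.7 in null libraries, with Dcn, the 1 tested, past the fold. Of the other markers 1 of 4 tested of the crypt (Axin2) and 2 of 5 of T cells (Cd7 and Cd8a) were past it and lower. Past it and higher in null were 1 of 5 of goblet cells (Clca1) and 1 of 4 of Paneth cells (Ang4). The 4 Paneth markers summed to 610 to 689 in WT and 669 to 672 in null libraries, with overlap. Among them Lyz1 was lower in null, at 263 to 273 in WT and 217 to 247 in null libraries. The part of these markers in the Insig1 and Lipa differences was not tested.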

How the data were processed

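The authors' deposited values were a normalised signal in 2 tables, 1 per experiment. Per the labels' protocols, libraries were 3′ tag libraries with unique molecular identifiers, read as single ends. HTSeq 0.91, HISAT2 2.1.0, DESeq2 2.11.40, Trimmomatic 0.38.1 and the build mm10 are named, with no order or settings, per the submitters' processing notes. How the identifiers and the strand were used was not given in the sources. Values were whole multiples of 1 step per library to within 1e-06 for 100% of values, so whole reads were recovered, less certainly in the enterocyte libraries WT 4 and null 3, whose size factors lie within 0.01 of 1; count tests there left them out.

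Enterocytes were tested with limma 3.58.1 (R 4.3.3) with a trend on log2(value + 1), 2-sided, fitted over all genes that reached 5 in as many libraries as the smaller group has. P-values were adjusted by Benjamini-Hochberg and called under 0.05. This scale understates the change of low genes. For the intestine, the ratio of mean values was given with an exact 95% binomial (Clopper-Pearson) interval from summed reads, which covers counting error only. Alternatives were pseudocounts of 0.5 and 5, no filter, a filter of 20, a fold of 1.5 and other scalings. Others were edgeR 4.0.16 (quasi-likelihood), DESeq2 1.42.0, a replicate block, a regional covariate and leaving out libraries. The block kept library numbers found in both genotypes, so it left out null 5 of the enterocytes and WT 4 of the intestine. Procedures were tested on simulated data.

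All members were named by role; other pathway genes were named where they passed. The members and lists were chosen with earlier results of these data known. Genome positions are those of RefSeq on GRCm38.p6.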

Additional observations from a re-analysis of the deposited data

Results flagged for a closer look

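In 3 of 89 groups of 4 or 5 libraries a single library stood far from the others of its genotype in the Mfge8 experiment; chance flags about 1 in 20 groups. Fdft1 was 83.4 normalised reads in WT 4, where the other WT libraries were at 44.7 to 50.3, and 117 in null 5, where the other null libraries were at 49.95 to 68.9. Mvd was 122 in null 5, where the others were at 34.0 to 54.9. These are the libraries in which most synthesis genes were highest within their genotype.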

How the results depend on the processing

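The count of 1 member passing in Mfge8 null enterocytes was also 1, namely Sqle, with other pseudocounts, filters and scalings, by edgeR and DESeq2, and without the libraries whose size factor is near 1. It was 0 with a replicate block, which left out null 5 (Sqle 1.11, limma adjusted p = 0.0592), and 0 with the regional score. It was 0 to 1 when 1 library was left out, and WT 1 and WT 3 were the libraries that decided it. The Sqle change ranged from 0.93 to 1.39 over 20 alternatives and the call held in 16. Deviations of same-numbered libraries had correlations of -0.120 to 0.214 in enterocytes and -0.0147 to 0.00334 in intestine. By this measure 1 of 4 and 0 of 3 matched best with their own number. So few libraries cannot exclude a pairing, and intestine libraries that differ by about sampling noise cannot show any. Over all genes 303 passed, against 146 with the regional score and 140 to 388 when 1 library was left out, the fewest without WT 1. The median of the members, 0.20, was 0.0032 with the regional score, 0.11 with total-read scaling and 0.043 with the replicate block. It was 0.38 by edgeR and 0.39 by DESeq2, both on 7 libraries, and 0.043 to 0.246 when 1 library was left out. The replicate block and leaving out null 5 gave the same median.

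Members that did not pass changed sign in 42 of 596 member and setting combinations, and none of these passed in either. With the regional score these were Mvd (-0.326), Fdft1 (-0.0783), Nsdhl (-0.0137), Hsd17b7 (-0.224), Ebp (0.0924), Sc5d (0.0052) and Srebf2 (-0.124). With the replicate block, which left out null 5, they were Mvd (-0.167), Hsd17b7 (-0.0787) and Srebf2 (-0.0268). The same values arose without null 5 and without a block. By edgeR, by DESeq2 and without the libraries with a size factor near 1, Acat2 was 0.151, 0.155 and 0.0803 and Lss 0.702, 0.696 and 0.0054. Lss was 0.0369 with a pseudocount of 5, and Hsd17b7 was -0.0648 with total-read scaling. When 1 library was left out, Abca1 ranged from -0.184 to 0.312, Acat2 from -0.218 to 0.0326, Ebp from -0.137 to 0.100, Hsd17b7 from -0.0787 to 0.141, Idi1 from -0.381 to 0.635, Lss from -0.462 to 0.5505, Mvd from -0.203 to 0.4195 and Srebf2 from -0.120 to 0.4955. The cause was not tested.

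In Cd36 null intestine the count of 1, Insig1, was also 1 with a fold of 1.5 and other scalings. It was 0 with the stricter filter, which leaves Insig1 untested, and 0 over libraries by limma, by edgeR and by limma with a replicate block. It was 0 to 1 when 1 library was left out, and null 3 decided it. By limma over libraries 2 of 29 members had an unadjusted p under 0.05. Of all genes tested 1742 of 9314 did, a higher share. Over all genes 1125 were past the fold, 638 at a fold of 1.5, and 699 passed over libraries by limma and 650 with the block. The median log2 ratio, 0.05, was 0.0234 with total-read scaling, 0.0382 with the replicate block and 0.0288 to 0.0646 when 1 library was left out. Members not past the fold changed sign in 18 of 399 member and setting combinations, over 11 members, and none was past it there; Tm7sf2 ranged from -0.0927 to 0.662 and Idi1 from -0.135 to 0.411 when 1 library was left out. The cause was not tested. In the intestine Fdps and Fdft1 were too low to test, and Insig1, Scarb1, Tm7sf2 and Mvk rested on few reads.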
